A study of Mus musculus with 10 samples.

Results

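The carboxylesterases described here are 8 genes of mouse chromosome 8 (mm10), Ces1d, Ces1e, Ces1f, Ces1g, Ces2a, Ces2b, Ces2c and Ces2e, taken by name from a table of 24368 genes. The 4 Ces1 members lie on the - strand between 93166068 and 93337308, and the 4 Ces2 members on the + strand between 104734003 and 104934672. RNA-seq was made from total RNA of proximal jejunum, the upper fat-absorbing part of the small intestine, of 5 mice labelled WT and 5 labelled cKO. The cKO mice are described by the submitters as lacking HuR in the intestinal epithelium only, and the WT mice as their littermates. HuR, encoded by Elavl1, is an RNA-binding protein known to attach to AU-rich parts of messenger RNAs. The sources used here do not state the Cre line, the age, sex or diet of the mice, or the litter of each mouse. No separation of the epithelium from the layers beneath it is described, and in such bulk samples fewer cells of a type and less RNA per cell cannot be told apart. The study was made on fat absorption, and the comparison asks whether these lipid and drug hydrolases differ between the genotypes.

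Carboxylesterases are serine hydrolases of the endoplasmic reticulum that split ester and amide bonds. They release the active form of many ester prodrugs, and several also hydrolyse triacylglycerol, diacylglycerol or cholesteryl esters. The Ces2 branch is known as the main intestinal branch, while the Ces1 branch is best known from liver. In rodents both branches have grown into tandem clusters, so that members are close in sequence.

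The whole data set held between 16063987 (cKO 1) and 18927440 (cKO 5) reads per library, recovered from the deposited values. Values below are normalised reads, that is reads divided by 1 size factor per library. Elavl1, the gene named as deleted, was at 631 to 709 normalised reads in WT and 556 to 725 in cKO, and did not pass the test (limma, log2 fold change -0.08, adjusted p = 0.798). The level of the targeted gene over its whole length therefore did not separate the libraries by their labels, and WT and cKO stand below for the labels. Across all genes, 1.32% of the 14062 tested passed an adjusted p under 0.05. Mitochondrial genes took 2.69% to 9.48% of values, with cKO 1 highest. Libraries cKO 3 and cKO 5 stood apart in clock genes, as Per2, a core clock gene, was at 12.7 and 16.0 there and at 342 to 749 in the other 8 libraries.

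Enterocyte markers identified the tissue, with 10 of 10 markers tested and their summed level between 1.12e+06 and 1.33e+06 in WT and between 8.22e+05 and 1.68e+06 in cKO. Of the markers of liver, the tissue best known for Ces1 enzymes, Alb was at 0 to 15.2 and Ahsg at 0 in every library, and the 5 listed markers in the table summed to 8.18 to 263 in WT and 14.4 to 199 in cKO. Nearly all of the higher sums was Cyp2e1, at 237 in WT 3, 221 in WT 6 and 188 in cKO 4, and at 0 in WT 1, WT 4 and cKO 5. The exocrine pancreas list summed to 5.09 or less. The adipocyte markers Adipoq and Plin1 were at 0 in WT 1, WT 4, cKO 2 and cKO 5, while Adipoq reached 246 in WT 6 and 224 in cKO 4, 2 of the libraries where Cyp2e1 was high.

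Promoters are shown for the 5 members that had an entry in the RefSeq promoter table (GRCm38.p6), because a run of letters recurs within each branch. Each sequence runs from 250 bases before to 50 bases after the annotated start, 5′ to 3′ on the gene's own strand. In Ces2e (chr8:104926010-104926309, + strand), Ces2c (chr8:104846818-104847117, + strand) and Ces2a (chr8:104733753-104734052, + strand), the capitals mark GAACTTT.
Ces2e: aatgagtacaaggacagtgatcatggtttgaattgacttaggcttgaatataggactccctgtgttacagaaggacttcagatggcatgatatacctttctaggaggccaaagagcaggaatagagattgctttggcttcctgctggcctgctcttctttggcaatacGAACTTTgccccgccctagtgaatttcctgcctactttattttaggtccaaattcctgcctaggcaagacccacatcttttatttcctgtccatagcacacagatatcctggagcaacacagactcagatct
Ces2c: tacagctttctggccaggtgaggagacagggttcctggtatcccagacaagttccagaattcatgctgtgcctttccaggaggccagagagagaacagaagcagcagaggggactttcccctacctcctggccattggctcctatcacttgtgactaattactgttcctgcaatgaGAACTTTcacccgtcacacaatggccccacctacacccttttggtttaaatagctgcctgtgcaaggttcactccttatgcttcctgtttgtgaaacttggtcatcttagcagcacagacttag
Ces2a: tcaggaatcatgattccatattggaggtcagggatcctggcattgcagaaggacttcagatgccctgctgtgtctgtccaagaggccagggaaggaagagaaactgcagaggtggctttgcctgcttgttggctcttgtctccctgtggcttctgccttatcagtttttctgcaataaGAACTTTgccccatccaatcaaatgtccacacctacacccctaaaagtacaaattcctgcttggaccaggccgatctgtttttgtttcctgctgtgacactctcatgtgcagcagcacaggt
GAACTTT began 82, 74 and 72 bases before the start of Ces2e, Ces2c and Ces2a, which are the 3 most abundant members. It was found in 3 of the 6 Ces2 genes with an entry and in 3.82% of all 32851 promoters, reading both strands. In Ces1e (chr8:93229570-93229869, - strand) and Ces1g (chr8:93337160-93337459, - strand) the capitals mark TTATGTAA, the core of the D-box, an element that the clock output factors Dbp, Tef and Hlf are known to bind.
Ces1e: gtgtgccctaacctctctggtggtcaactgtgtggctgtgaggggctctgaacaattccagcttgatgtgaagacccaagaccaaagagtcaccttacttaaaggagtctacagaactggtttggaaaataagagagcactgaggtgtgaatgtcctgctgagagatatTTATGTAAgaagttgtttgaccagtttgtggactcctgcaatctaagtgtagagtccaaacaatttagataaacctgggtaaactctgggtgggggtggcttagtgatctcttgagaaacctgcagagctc
Ces1g: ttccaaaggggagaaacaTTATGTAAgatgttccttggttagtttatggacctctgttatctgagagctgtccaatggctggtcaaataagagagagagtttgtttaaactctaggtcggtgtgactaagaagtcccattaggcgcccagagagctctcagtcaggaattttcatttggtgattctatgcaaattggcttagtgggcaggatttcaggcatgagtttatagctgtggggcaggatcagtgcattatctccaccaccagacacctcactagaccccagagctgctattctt
TTATGTAA began 81 bases before the start of Ces1e and 232 before that of Ces1g. It was found in 5 of the 6 Ces1 genes with an entry and in 0.938% of all promoters. Both runs were picked after the sequences had been read, from 10 strings searched, so the shares describe these windows and carry no test.

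The Ces2 branch made up nearly all of the carboxylesterase signal, and Ces2e alone most of it. Over the 16 carboxylesterase genes in the table, per kilobase of the deposited gene length, the 4 Ces2 members took 94.8% ± 1.07 of the summed level in WT and 93.9% ± 1.61 in cKO (± SD, 5 mice per group). Ces2e took 63.2% ± 4.62 in WT and 64.0% ± 6.62 in cKO, and Ces2c took 20.6% ± 2.23 and 18.6% ± 3.95. Ces2a took 10.9% ± 3.61 and 11.2% ± 6.70, with its largest share, 22.4%, in cKO 2. Ces1f was the only Ces1 member above 1%, with 3.50% ± 0.835 in WT and 4.56% ± 1.60 in cKO. The 8 members together took 98.9% in WT and 99.2% in cKO. No share was tested, and each of those given here differed between the group means by less than the larger of its group SDs.

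**Figure D1:**
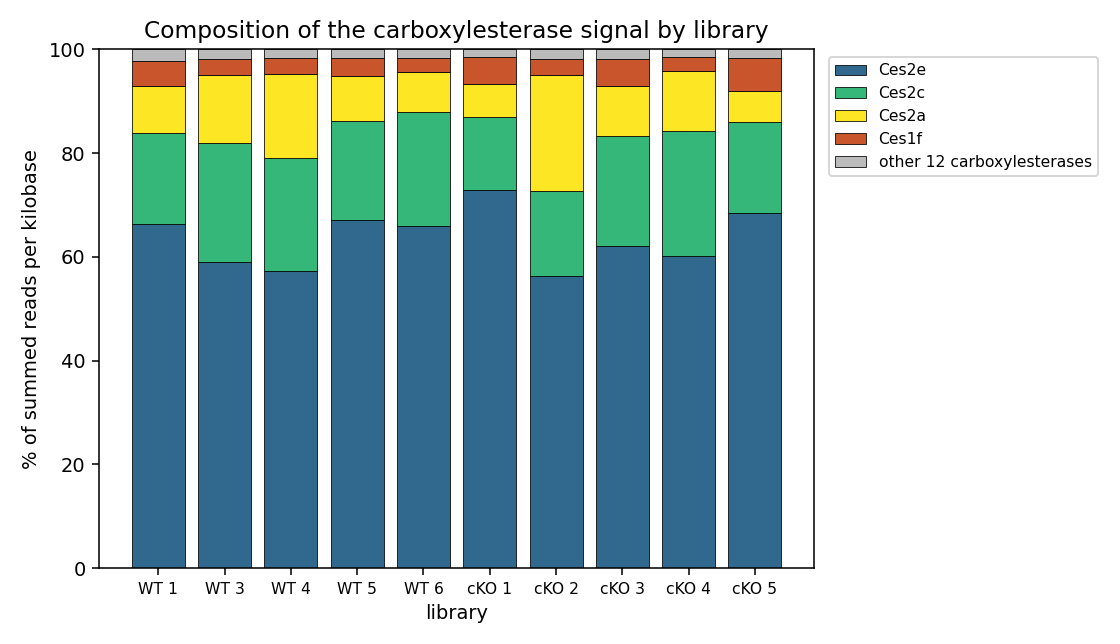
Share of each carboxylesterase in the summed level of 16 genes (y axis, % of reads per kilobase) in each of the 10 libraries (x axis, 1 bar per mouse). Ces2e fills 56.3% to 72.8% of every bar, and the widest band of Ces2a, 22.4%, is in cKO 2.

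By mean level per kilobase in WT, the order was Ces2e (9625), Ces2c (3213), Ces2a (1748), Ces1f (538), Ces1d (56.3), Ces1e (40.5), Ces1g (10.2) and Ces2b (8.03). Levels and shares compared between genes depend on the length used. The deposited length was 3285 bases for Ces1f, whose GENCODE M21 transcript used here has 1926, while both were 2699 for Ces2e. Ces2e stood above Ces2c in 10 of 10 libraries and Ces1f above Ces1d in 10 of 10. Ces2c stood above Ces2a in 9 of 10, with overlapping WT ranges, and the exception was cKO 2. Among the lower members, Ces1e stood above Ces1g in 10 of 10 libraries, without overlap of the WT ranges. Ces1d and Ces1e had overlapping WT ranges, with Ces1d above in 8 of 10 libraries, and so had Ces1g and Ces2b, with Ces1g above in 6 of 10.

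**Figure D2:**
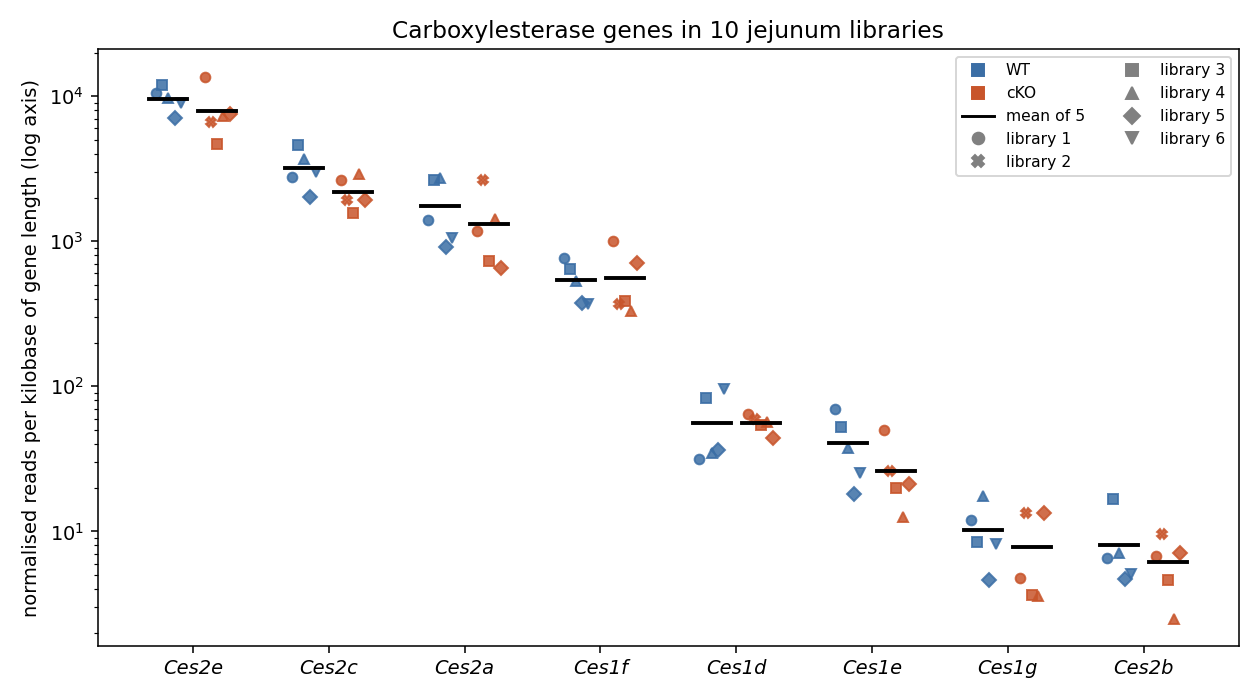
Level of each of the 8 genes (x axis) in normalised reads per kilobase (y axis, log scale), 1 point per library, with bars at the mean of 5. Ces2e has a WT mean of 9625 and Ces2b one of 8.03, and WT and cKO points overlap for every gene.

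None of the 8 members passed the test between cKO and WT. By limma, edgeR's quasi-likelihood test and DESeq2 the number of members with an adjusted p under 0.05 was 0, beside 1.32%, 1.29% and 5.45% of all genes. At an unadjusted p under 0.05 limma had 1 member, Ces2c, beside 18.6% of all genes. Groups without overlap were found for 0 members, beside 4.87% of all genes. The fitted log2 fold change was below 0 for 7 of 8 members, beside 49% of all genes, and its median over the members was -0.39, beside 0.01 over all genes. Without cKO 3 and cKO 5, the median of the members was -0.22 and 6 of 8 were below 0. Members shared low libraries, as 7 of 8 were below their WT mean on the log2 scale in cKO 3 and in cKO 4, so these counts are not independent of each other.

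**Figure D3:**
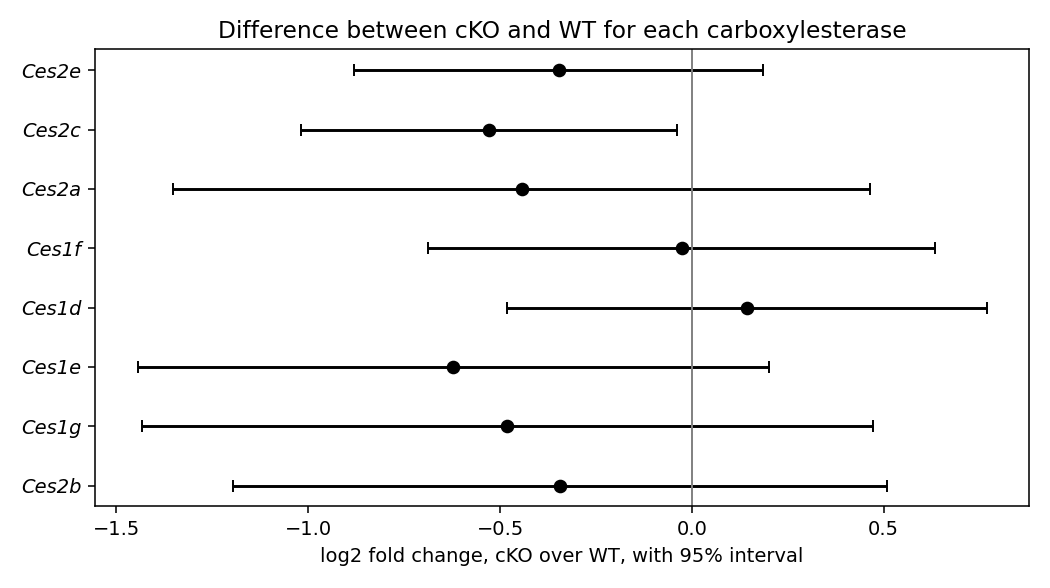
Log2 fold change of cKO over WT (x axis, on log2(value + 1)) for each gene (y axis), as points with 95% intervals from limma. All intervals but that of Ces2c (-1.02 to -0.04, before adjustment for the number of genes) include 0.

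Ces2e (ENSMUSG00000031886, chr8:104926260-104934672), the most abundant member, was at 28193, 32007, 26068, 19221 and 24405 normalised reads in WT 1, 3, 4, 5 and 6. In cKO 1 to 5 it was at 36853, 18045, 12550, 19664 and 20202. The highest and the lowest of all 10 values were thus both in cKO, in cKO 1 and cKO 3. The mean was 25979 ± 4727 in WT and 21463 ± 9121 in cKO (± SD, 5 mice per group), with a log2 fold change of -0.35 ± 0.25 (SE; limma adjusted p = 0.474). Its 95% interval, -0.88 to 0.19, runs from a fall of 45.6% to a rise of 13.7%. Without cKO 1 the log2 fold change was -0.56 (adjusted p = 0.171), and without cKO 3 and cKO 5 it was -0.12.

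Ces2c (ENSMUSG00000061825, chr8:104847068-104854483), described in mouse liver as a triacylglycerol hydrolase, came closest to the threshold. Its normalised reads were 6356, 10550, 8426, 4643 and 6939 in the WT libraries, in the same order, and 6118, 4453, 3619, 6722 and 4398 in cKO 1 to 5. All 5 cKO values lay below the WT median and 3 lay below the lowest WT value, while cKO 1 and cKO 4 lay inside the WT range. The mean was 7383 ± 2229 in WT and 5062 ± 1300 in cKO (± SD, 5 mice per group). The log2 fold change was -0.53 ± 0.23 (SE), with a 95% interval from -1.02 to -0.04. The limma p was 0.0362 and the adjusted p 0.236. The fold change stayed below 0 in all 21 alternative fits, which share libraries and are not independent. The lowest adjusted p among them was 0.111, without cKO 4. The unadjusted limma p of Ces2c was not under 0.05 when WT 3, WT 4, WT 6, cKO 2, cKO 3 or cKO 5 was left out singly. It was also not under 0.05 without both cKO 3 and cKO 5, where the log2 fold change was -0.32.

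Reads of Ces2c may be shared with its pseudogene neighbour. Ces2d-ps, annotated as an unprocessed pseudogene, holds a run of 181 bases identical to Ces2c, which covers bases 1568 to 1748 of the Ces2c transcript, inside the coding sequence, and lies in 1 exon at chr8:104854081-104854261 (GRCm38, + strand, GENCODE M21). It is shown because a read that falls wholly within it matches both genes.
Ces2c with Ces2d-ps: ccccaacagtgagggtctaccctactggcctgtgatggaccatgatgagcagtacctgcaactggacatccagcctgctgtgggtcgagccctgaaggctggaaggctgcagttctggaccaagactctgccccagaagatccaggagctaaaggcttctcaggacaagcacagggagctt
Of all 50-base windows of Ces2c, 38.2% were found in Ces2d-ps, as were 15.7% of 100-base and 3.35% of 150-base windows. For the other 7 members, the share of 50-base windows found in any other carboxylesterase was 0.533% to 4.50%, and it was 0 for 100-base windows. The sources used here state neither the read length nor how reads matching more than 1 gene were counted, and how far this touched the Ces2c value was not tested. Ces2d-ps itself was at 45.1 ± 8.69 in WT and 31.4 ± 17.2 in cKO (± SD, 5 mice per group; limma log2 fold change -0.63, adjusted p = 0.300).

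Ces2a (ENSMUSG00000055730, chr8:104734003-104741634), a further Ces2 enzyme known for acylglycerol hydrolysis, varied more between mice of a genotype than between genotypes. It was at 3326, 6230, 6428, 2153 and 2482 normalised reads in the WT libraries and at 2762, 6265, 1725, 3344 and 1535 in cKO 1 to 5. WT 3, WT 4 and cKO 2 stood high, at 6230 or more, and the other 7 libraries at 3344 or less. The mean was 4124 ± 2059 in WT and 3126 ± 1906 in cKO (± SD, 5 mice per group), with a log2 fold change of -0.44 ± 0.42 (SE; limma adjusted p = 0.597; 95% interval -1.35 to 0.47). Of the cKO libraries, cKO 3 and cKO 5 lay below the WT range, and without this pair the log2 fold change was 0.06.

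Ces2b (ENSMUSG00000050097, chr8:104831572-104840093), whose coding sequence is the closest to another member (91.3% identical to Ces2c), was the lowest member per kilobase. It was at 22.5, 56.7, 24.4, 16.0 and 17.3 normalised reads in the WT libraries and at 22.9, 32.7, 15.9, 8.53 and 24.0 in cKO 1 to 5. WT 3 stood above all other libraries. The log2 fold change was -0.34 ± 0.40 (SE; limma adjusted p = 0.678) and was -0.05 without WT 3.

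Ces1f (ENSMUSG00000031725, chr8:93256236-93279747), the Ces1 member with the highest level, had nearly the same mean in both groups with a wide spread. It was at 2524, 2103, 1761, 1237 and 1206 normalised reads in the WT libraries and at 3276, 1204, 1276, 1086 and 2328 in cKO 1 to 5. The cKO values fell into 2 high libraries, cKO 1 and cKO 5, and 3 near or below the lowest WT value. The mean was 1766 ± 566 in WT and 1834 ± 947 in cKO (± SD, 5 mice per group), and the log2 fold change of -0.03 ± 0.31 (SE; limma adjusted p = 0.972) had a 95% interval from -0.69 to 0.63. In 8 of 21 alternative fits its sign was positive.

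Ces1d (ENSMUSG00000056973, chr8:93166068-93197838), a triacylglycerol hydrolase of liver and adipose tissue, was at 74.7, 197, 81.9, 86.8 and 226 normalised reads in the WT libraries and at 153, 140, 129, 135 and 105 in cKO 1 to 5. WT 3 and WT 6 stood high and the other 3 WT libraries low, with all 5 cKO values in the gap between them. The means were 133 ± 72.5 in WT and 132 ± 17.6 in cKO (± SD, 5 mice per group), with a log2 fold change of 0.14 ± 0.29 (SE; limma adjusted p = 0.830; 95% interval -0.48 to 0.77). WT 3 and WT 6 were also the WT libraries highest in the adipocyte gene Adipoq, which was at 0, 188, 0, 22.9 and 246 in WT 1, 3, 4, 5 and 6. In cKO 1 to 5 Adipoq was at 109, 0, 65.0, 224 and 0, and Ces1d stayed at 140 and 105 in the 2 cKO libraries without it. With log2(Adipoq + 1) as a covariate, a fit chosen after the values were seen, the log2 fold change of Ces1d was 0.13 (limma adjusted p = 0.805). This value compares the genotypes only, and a part of adipocyte RNA in the Ces1d level was not tested. Of the other adipocyte markers, Plin1, Lep, Cfd and Retn were at 1.02 or less in the 4 libraries where Adipoq was at 0, whereas Cidec was at 4692 or more in every library.

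**Figure D4:**
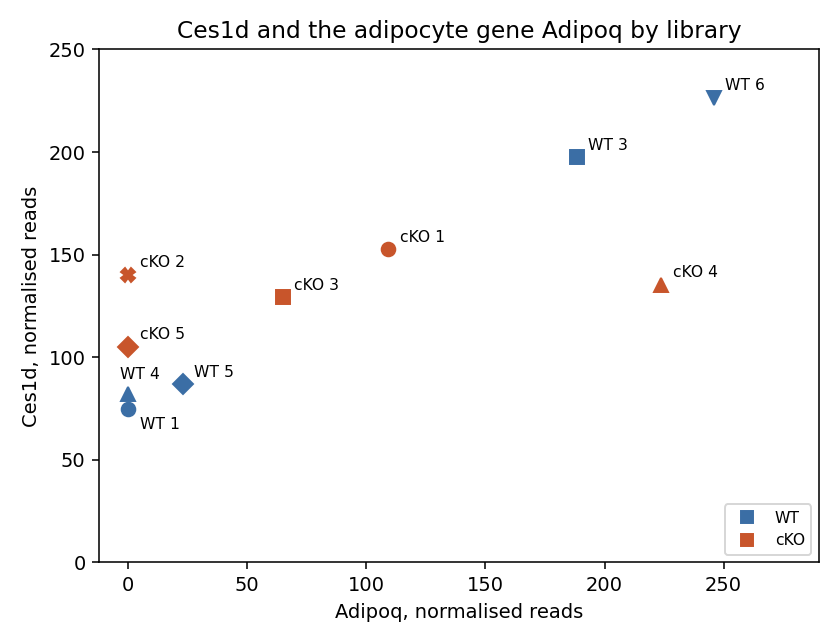
Ces1d (y axis) against the adipocyte gene Adipoq (x axis), both in normalised reads, 1 point per library, coloured by group. WT 3 and WT 6 are high in both, at 197 and 226 for Ces1d, while cKO 2 has 140 for Ces1d with Adipoq at 0.

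Ces1e (ENSMUSG00000061959, chr8:93201218-93229619), also called egasyn and known for holding beta-glucuronidase in the endoplasmic reticulum, was at 152, 114, 81.9, 39.9 and 55.2 normalised reads in the WT libraries and at 109, 57.3, 43.6, 27.7 and 46.5 in cKO 1 to 5. Of the cKO values, 4 lay inside the WT range and cKO 4 below it. The log2 fold change was -0.62 ± 0.39 (SE; limma adjusted p = 0.402), with a 95% interval from -1.44 to 0.20. Ces1g (ENSMUSG00000057074, chr8:93302369-93337308), known from liver lipid metabolism, was at 28.6, 20.3, 41.9, 11.0 and 19.5 in the WT libraries and at 11.4, 31.8, 8.72, 8.53 and 32.1 in cKO 1 to 5. Its cKO values fell into 2 high libraries, cKO 2 and cKO 5, and 3 low ones. The log2 fold change was -0.48 ± 0.45 (SE; limma adjusted p = 0.590; 95% interval -1.43 to 0.47).

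Since TTATGTAA stands in the promoters of Ces1e and Ces1g shown above, Dbp, Tef and Hlf were set beside them, chosen after their values were seen. Dbp was at 165 and 48.1, Tef at 261 and 155, and Hlf at 48.4 and 19.2 in cKO 3 and cKO 5, each below its lowest value in the other 8 libraries. Nfil3, a further clock gene chosen in the same way, went in the other direction. It was at 134 and 139 in cKO 3 and cKO 5 and at 25.5 to 64.8 in the other 8 libraries. Ces1e was at 43.6 and 46.5 in cKO 3 and cKO 5, above its value in cKO 4, 27.7. Ces1g was at 8.72 in cKO 3 and 32.1 in cKO 5. A link between these genes and the factors was not tested.

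Most members were low together in some libraries. On the log2 scale all 8 members were below their WT mean in WT 5, and 7 of 8, all but Ces1d, were so in WT 6, cKO 3 and cKO 4. In WT 1, cKO 1 and cKO 2, 4 members were below their WT mean and 4 above it. WT 5 was the lowest WT library for 6 of 8 members and WT 3 the highest for 3. Among the cKO libraries, cKO 1 was the highest for 4 members and cKO 4 the lowest for 4. The summed level of the 8 members per kilobase was 15239 ± 3498 in WT and 12134 ± 4059 in cKO (± SD, 5 mice per group). It ran from 10495 (WT 5) to 19892 (WT 3) in WT, and from 7427 (cKO 3) to 18610 (cKO 1) in cKO. The total of normalised reads over all genes was likewise lowest in cKO 3 (13417113) and highest in cKO 1 (20427114). In WT that total was 16913986 to 18346626, and its part in the member levels was not tested. Enterocyte markers had their lowest and highest sums in the same 2 cKO libraries, 8.22e+05 in cKO 3 and 1.68e+06 in cKO 1, and their part in the member levels was not tested. In cKO 1 these markers were split, as Fabp2, Sis, Fabp1, Apob and Mttp were above their highest WT value. Vil1, Alpi, Lct and Apoa4 were below their lowest WT value there, and Apoa1 was between. In WT 5 the enterocyte sum was 1.18e+06, inside the range of the other WT libraries.

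**Figure D5:**
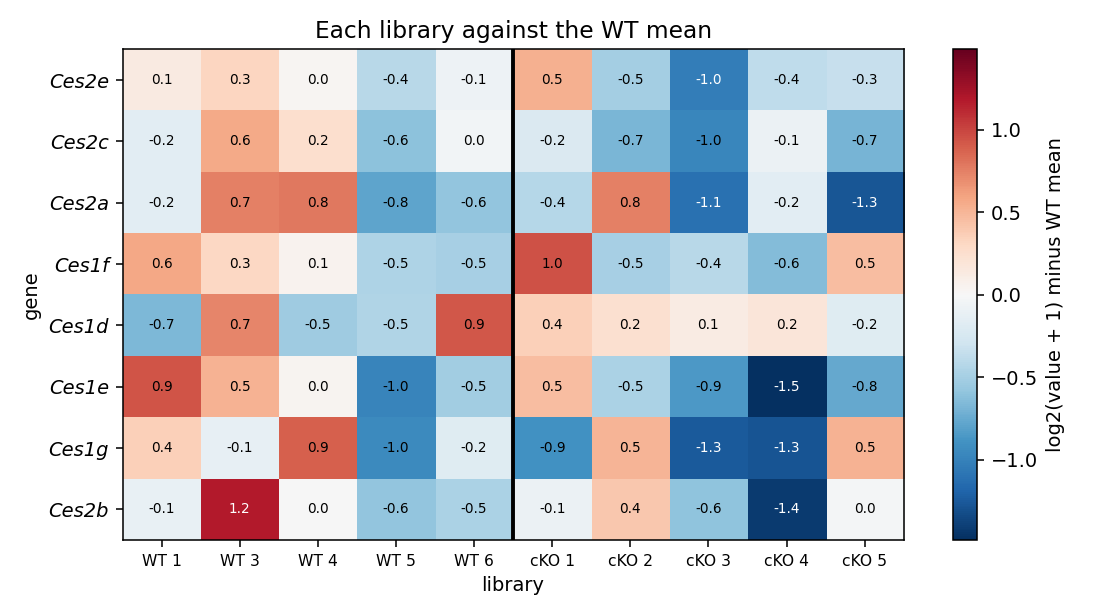
Difference of each library (x axis) from the WT mean in log2(value + 1) for each gene (y axis), WT left and cKO right of the line, blue below and red above the WT mean. The WT 5 column is below 0 for all 8 genes and the cKO 3 column for 7 of 8, and the 2 largest values below the WT mean are in cKO 4.

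Genes whose pattern over the 10 libraries was most like that of the top member of each branch were taken from 8568 genes with a mean of at least 100, as a description without a test. The 5 nearest to Ces1f were Tnfaip8l3 (Pearson r = 0.95), Nfatc3 (0.95), Cdv3 (0.94), Edem3 (0.93) and Zmpste24 (0.93). Without cKO 1 and WT 1, the 2 libraries farthest from the Ces1f median, r was 0.83 to 0.97. Among those nearest to Ces2e were Tmem45b (0.97), Tom1l1 (0.95), Hsd17b11 (0.95) and Sc5d (0.94). Hsd17b11 is a lipid droplet dehydrogenase and Sc5d a cholesterol synthesis enzyme. Without cKO 3 and cKO 1, r was 0.85 to 0.93 for these 4. All points share depth and scaling by library, and none of the genes named here passed the test between groups (lowest limma adjusted p 0.283).

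The other carboxylesterases in the table were 8 genes, of which 2, Ces2g and Ces2d-ps, passed the filter of a mean of at least 10. Ces2g was at 678, 550, 489, 224 and 237 normalised reads in the WT libraries and at 331, 316, 131, 254 and 262 in cKO 1 to 5. Its log2 fold change was -0.68 (limma adjusted p = 0.292). Ces2h and Ces3a were below the filter, with means of 9.66 ± 3.53 and 9.70 ± 5.14 in WT and 2.81 ± 1.52 and 1.95 ± 1.82 in cKO (± SD, 5 mice per group), and for both every cKO value was below every WT value. Among the 1423 genes with a mean of 5 to under 10, which were not tested, 2.46% had groups without overlap. Ces1b, Ces1c, Ces2f and Ces3b were lower still or rested on 1 library, as Ces2f did on WT 5 with 39.9.

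By coding sequence the branches were clearly apart, at 74.1% to 81.6% identity within the Ces1 members, 82.2% to 91.3% within the Ces2 members and 54.9% to 57.5% between them. Because HuR binds AU-rich stretches, ATTTA and TTTATTT were counted on the sense strand of each 3′ UTR in GENCODE M21. The 3′ UTR of Ces2c is 219 bases long, with 2 ATTTA and 3 TTTATTT, and of 1631 3′ UTRs of like length 27.0% hold an ATTTA and 9.14% a TTTATTT. Ces2a had 1 of each in 214 bases, where the shares are 26.3% and 8.51%. Ces2b had 4 ATTTA and 3 TTTATTT in 1637 bases, a length at which 87.3% hold an ATTTA and 49.3% a TTTATTT. Ces2e had 3 ATTTA and 0 TTTATTT in 958 bases, where the shares are 72.7% and 34.7%. Among the Ces1 members, Ces1f had 2 ATTTA in 193 bases (23.2% hold one) and Ces1d 1 in 187 (22.8%), while Ces1e and Ces1g had 0 of either. Matches are letters only, overlapping ones counted, and no binding was measured.

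Among esterases and lipases outside the family, 1 gene passed the test, Lipa, beside 1.32% of all genes. Of 8 other esterases tested, 0 passed, with a median log2 fold change of -0.09 that was 0.07 without cKO 3 and cKO 5. The smallest p belonged to Pon2, a lactonase (1418 ± 130 in WT and 969 ± 129 in cKO, log2 fold change -0.56, limma adjusted p = 0.0737), and Ache, acetylcholinesterase (-1.16, adjusted p = 0.196). Of 11 neutral lipid lipases and cofactors, 1 fell and 0 rose, with a median of -0.34 that was -0.20 without cKO 3 and cKO 5. This was Lipa, the lysosomal acid lipase, which was at 1962 ± 171 in WT and 1093 ± 238 in cKO (± SD, 5 mice per group) without overlap (log2 fold change -0.87 ± 0.18, SE, limma adjusted p = 0.0307). The cKO values of Lipa ran from 691 to 1316 and the WT values from 1728 to 2197, and 4.87% of all genes had groups without overlap.

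Among xenobiotic and lipid sensors and the targets of PXR, CAR and PPAR alpha, 1 gene passed the test, Cyp2b10, beside 1.32% of all genes. Of 11 xenobiotic and lipid sensors 0 passed, with a median of -0.22 that was -0.20 without cKO 3 and cKO 5. Of these 11, 9 were below 0, beside 49% of all genes. An unadjusted limma p under 0.05 was found for 6 of them, beside 18.6% of all genes. The smallest p belonged to Nr1i3, the receptor CAR (-0.89, limma adjusted p = 0.103), and Nr1h4, the bile acid receptor FXR (0.76, adjusted p = 0.126). Of 10 targets of PXR and CAR, 1 fell and 0 rose, with a median of -0.47 that was -0.07 without cKO 3 and cKO 5. The directions were mixed, with 6 of the 10 below 0. Gstm1, chosen after its value was seen, was higher in cKO (1.04, limma adjusted p = 0.110). The gene that fell was Cyp2b10, a drug-metabolising P450 and a standard CAR target, at 6198 ± 1562 in WT and 2214 ± 1148 in cKO (± SD, 5 mice per group) without overlap (log2 fold change -1.61 ± 0.32, SE, limma adjusted p = 0.0314). Groups without overlap were found for 4.87% of all genes. Of 9 PPAR alpha targets 0 passed, with a median of -0.39 (-0.19 without cKO 3 and cKO 5); Cpt1a and Creb3l3 had the smallest p, at -0.39 (adjusted p = 0.191) and -0.59 (adjusted p = 0.214). Of 17 clock genes 0 passed, with a median of -0.81 that was -0.16 without cKO 3 and cKO 5, and Bhlhe40 and Cry2 had the smallest p (-1.06 and -1.08, adjusted p = 0.127 and 0.165).

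Markers of other cells moved in part with the groups. The enterocyte markers had 0 of 10 passing and a median of -0.20, and the crypt markers 0 of 8 and a median of 0.46. Without cKO 3 and cKO 5 these medians were -0.06 and 0.31. Of 6 fibroblast markers, 2 rose, Col1a1 (log2 fold change 1.02, limma adjusted p = 0.0426) and Col3a1 (0.75, adjusted p = 0.0357). Of all genes, 1.32% passed in either direction. The median of the 6 fibroblast markers was 0.56, and it was 0.57 without cKO 3 and cKO 5. The summed fibroblast level was 4847 to 6066 in WT and 6211 to 9835 in cKO. Macrophage markers had 0 of 6 passing, with a median of 0.19 that was 0.00064 without cKO 3 and cKO 5. The part of these shifts in the lower fitted values of the carboxylesterases was not tested.

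The authors' deposited table lists fold changes of its own for these genes. In the authors' deposited table, the log2 fold change was -0.51 for Ces2c (adjusted p = 0.159), -0.27 for Ces2e (0.552), -0.49 for Ces2a (0.596) and 0.20 for Ces1f (0.769), and none of the 8 was below 0.05. That table also holds 2 columns of values that match no labelled sample and were not used here, and its fold changes may rest on them too.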

How the data were processed

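Total RNA of proximal jejunum from 5 WT and 5 cKO mice was sequenced, each library from a separate mouse. The submitters' processing notes name CASAVA, HISAT2 2.0.5, featureCounts 1.5.0-p3 and DESeq2 1.20.0 with mm10. The sources used here give no strand setting, read length or annotation release, and overlapping genes or near-identical copies may share reads.

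The deposited signal per gene is the authors' read count divided by a size factor of its library. This was read from the numbers themselves, since 100% of them became whole reads within 0.001. Gene length is the authors' deposited column. The authors' deposited log2 fold change and adjusted p-value were used for comparison only. A further 2 columns matched no sample and were not used.

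The main test was limma 3.58.1 (R 4.3.3; trend, robust) on log2(value + 1), with genes of mean at least 10, genotype alone and Benjamini-Hochberg adjustment over the 14062 genes tested at 0.05. Fold changes on this scale understate the change of low genes. Alternatives were edgeR 4.0.16 and DESeq2 1.42.0 on recovered reads, other filters and pseudocounts, a replicate block, and leaving out libraries. A fit with an Adipoq covariate was added after the data were seen. The fits were tested on simulated data. Within groups no 2 libraries were near copies (chi-square over degrees of freedom at least 21.5).

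The members and gene lists were chosen with earlier results of these data known. Named genes were all members, the other carboxylesterases, up to 4 called genes per list (or the 2 with the smallest p), and the 5 nearest patterns, of which 1 is not reported here; others are marked as chosen after their values were seen. Sequences came from RefSeq promoters (GRCm38.p6) and GENCODE M21 transcripts. Plots used matplotlib 3.10.9 (Python 3.11.15).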

Additional observations from a re-analysis of the deposited data

Results flagged for a closer look

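Ces2b in WT 3 was 56.7 normalised reads, apart from the other 4 WT libraries, which lay between 16.0 and 24.4, by more than Dixon's 95% limit for a group of 5. The values of 10 carboxylesterase genes were checked in both groups, 20 groups in all, and chance alone flags about 1 in 20.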

How the results depend on the processing

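The number of members called stayed at 0 in each of the 21 alternatives, with Ces1g and Ces2b outside the test at a minimum mean of 50. The number of all genes called moved from 186 to 750 with DESeq2, 56 without cKO 3 and cKO 5, and 111 with the Adipoq covariate; leaving out 1 library gave 30 (without WT 4) to 611 (without cKO 4). With edgeR it was 181, and with library totals 160, which turned the split of calls from 62 higher and 124 lower to 86 higher and 74 lower and the median of all genes to 0.14. Signs changed near 0 for Ces1d and Ces1f. Ces1d turned to -0.0082 with DESeq2, -0.0056 with edgeR and TMM factors and -0.023 without WT 1. Ces1f turned to 0.056 with DESeq2, 0.056 with edgeR and TMM factors and 0.12 with edgeR and library totals. Ces1f also turned positive without WT 1 (0.117), WT 3 (0.052), cKO 2 (0.090), cKO 3 (0.069) or cKO 4 (0.127). Ces2a moved further, from -0.44 in the main fit to 0.056 without cKO 3 and cKO 5, and the cause was not tested. Leaving out 1 library gave log2 fold changes of -0.023 to 0.37 for Ces1d, -0.27 to 0.13 for Ces1f, -0.74 to -0.23 for Ces2a, -0.68 to -0.39 for Ces2c and -0.56 to -0.18 for Ces2e. Same-numbered libraries did not deviate together (r = 0.12, 0.02, -0.11 and 0.10). This does not settle whether the numbers mark pairs of mice, as the litters are not stated. A replicate block over the 8 libraries with shared numbers called 130 genes, against 88 for these libraries unpaired, and 0 members either way. Depth limits Ces1g and Ces2b, each at 8.53 normalised reads in cKO 4, while the interval of Ces2a, at 1535 or more in every library, still reaches a fall of 60.8%.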
